A study of Mus musculus with 2 samples.

Results

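The genes described here are the 10 that carry out V(D)J recombination and the end joining that completes it, out of 27179 genes counted. They were chosen by name, as the recombinase, terminal transferase and end-joining genes, and all 10 were matched by their Entrez Gene numbers. Rag1, Rag2 and Dntt are lymphoid-specific (3 members), whereas Prkdc, Dclre1c, Xrcc5, Xrcc6, Xrcc4, Lig4 and Nhej1 are used by all cell types (7 members). RNA was sequenced from ALL65, a T-ALL (acute lymphoblastic leukaemia of T lineage) that arose in a mouse of genotype Vav-tTA;TRE-GFP-shIkaros, in which a tetracycline transactivator driven by Vav, a promoter of blood cells, switches on a hairpin RNA against Ikaros together with green fluorescent protein (GFP). The Dox group was GFPmid cells from recipient mice given doxycycline for 3 days, which shuts the hairpin off and lets Ikaros return, and the untreated group was GFPhigh cells from recipients without doxycycline. Both groups were sorted from the spleen, both carry the transgenes, and both come from this 1 primary leukaemia. The effect of the drug, the return of Ikaros and the difference in sort gate cannot be told apart.

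V(D)J recombination assembles antigen receptor genes in developing lymphocytes. The RAG1 and RAG2 proteins together cut DNA beside receptor gene segments, terminal transferase (encoded by Dntt) adds nucleotides without a template, and the broken ends are sealed by non-homologous end joining. In that last step the Ku heterodimer (Xrcc6 and Xrcc5) holds the ends, the kinase DNA-PKcs (Prkdc) and the nuclease Artemis (Dclre1c) open and trim them, and DNA ligase IV (Lig4) with its partners XRCC4 (Xrcc4) and XLF (Nhej1) joins them. Thymocytes transcribe the recombinase while they rearrange their receptor genes and shut it off as they mature. Ikaros binds DNA through zinc fingers that recognise a GGGAA core, and in mouse thymocytes it is known to bind the Dntt promoter.

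Each group had 1 library, so the differences below have no replicate check and no test was run. The Dox library held 14457475 counts and the untreated library 7477988. Levels are given as counts-per-million values (CPM) over library sizes scaled by the trimmed mean of M values (TMM), and ratios as log2 of the Dox over the untreated CPM after a prior count of 2 was added. Levels per gene length are given as RPKM, which is CPM divided by the gene length in kilobases. Bounds in parentheses are exact 95% intervals that cover counting error only. Ikzf1, the gene the hairpin targets, had 1455 CPM in the Dox library and 262 CPM in the untreated library, a log2 ratio of 2.47 (2.41 to 2.54). All 11 T cell markers examined passed 5 CPM, with summed levels of 5274 CPM with Dox and 5031 CPM untreated. Within that sum 2 markers were at least 2-fold higher with Dox, namely the adhesion receptor gene Cd2, at 109 CPM against 10.1 CPM, and Cd5, at 71.2 CPM against 11.4 CPM. Cd247, the zeta chain gene of the T cell receptor complex, had 429 CPM with Dox and 251 CPM untreated, and the other T cell markers lay within 1.5-fold. None of 12 B cell and B cell progenitor markers reached a mean of 1 CPM. Their summed levels were 1.69 and 1.18 CPM in the Dox and untreated libraries, and 4 of them, Ms4a1, Pax5, Ebf1 and Vpreb2, had no read in either library. Of the other markers, 2 of 12 myeloid, 2 of 8 natural killer, 4 of 7 erythroid and 4 of 8 stromal and endothelial genes reached that mean. The myeloid sum was 17.6 CPM with Dox and 16.8 CPM untreated, and its 2 genes past that mean went opposite ways. Lyz2, a lysozyme gene, stood lower with Dox at 1.69 CPM against 7.24 CPM, as the lymphoid-specific members did, and the integrin gene Itgam stood higher at 14.7 CPM against 8.42 CPM. The natural killer sum was 5.55 CPM with Dox and 2.24 CPM untreated, the erythroid sum 7.73 and 6.32 CPM, and the stromal sum 329 and 361 CPM. Of the stromal and endothelial genes, Pdgfrb stood lower with Dox at 10.5 CPM against 35.3 CPM (log2 ratio -1.72, -2.04 to -1.45), as did Col1a2 at 112 CPM against 165 CPM, and Pecam1 stood higher at 205 CPM against 159 CPM. Col3a1, Cdh5, Kdr and Dcn, from the same list, had no reads in either library, and Col1a1 had 1.83 CPM with Dox and 1.97 CPM untreated. The 2 natural killer genes past a mean of 1 CPM were Nkg7 (2.88 and 1.18 CPM) and Prf1 (2.46 and 0.395 CPM). Ncr1, Klrk1, Klrd1 and Klre1 had no reads. Whether any of these transcripts came from other cells, and the part of such cells in the results below, was not tested.

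The promoters of the lymphoid-specific members are shown first, since these genes stood lower with Dox together, and that of Xrcc6 is shown beside them as the ubiquitous member with the largest difference in the same direction and more than 1 GGGAA. Sequences are RefSeq promoters of build GRCm38.p6 (the assembly behind mm10), in gene direction, from 250 bases before the annotated start to 50 after it. Capitals mark each GGGAA, on either strand, and 1 of the 9 members with a promoter has 2 annotated starts. The windows lie at chr2:101649483-101649782 (Rag1, minus strand), chr2:101624462-101624761 (Rag2, plus strand), chr19:41029025-41029324 (Dntt, plus strand) and chr15:82016119-82016418 (Xrcc6, plus strand).
Rag1: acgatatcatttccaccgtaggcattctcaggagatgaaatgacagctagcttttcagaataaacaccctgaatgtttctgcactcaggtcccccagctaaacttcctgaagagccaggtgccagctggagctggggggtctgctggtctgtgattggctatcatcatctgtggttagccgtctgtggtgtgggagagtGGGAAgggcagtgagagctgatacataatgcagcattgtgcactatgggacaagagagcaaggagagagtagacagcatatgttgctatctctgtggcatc
Rag2: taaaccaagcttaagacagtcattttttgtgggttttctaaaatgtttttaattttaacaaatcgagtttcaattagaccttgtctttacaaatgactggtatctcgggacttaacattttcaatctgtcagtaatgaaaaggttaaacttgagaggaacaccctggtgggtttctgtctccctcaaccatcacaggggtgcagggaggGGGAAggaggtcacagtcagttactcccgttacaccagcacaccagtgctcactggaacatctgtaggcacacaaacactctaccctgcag
Dntt: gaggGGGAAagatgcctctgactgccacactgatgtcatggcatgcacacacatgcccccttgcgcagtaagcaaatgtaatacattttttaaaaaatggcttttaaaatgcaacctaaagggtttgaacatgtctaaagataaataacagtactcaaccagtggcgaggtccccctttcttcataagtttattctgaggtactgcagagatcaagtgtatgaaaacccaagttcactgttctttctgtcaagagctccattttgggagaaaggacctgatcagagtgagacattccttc
Xrcc6: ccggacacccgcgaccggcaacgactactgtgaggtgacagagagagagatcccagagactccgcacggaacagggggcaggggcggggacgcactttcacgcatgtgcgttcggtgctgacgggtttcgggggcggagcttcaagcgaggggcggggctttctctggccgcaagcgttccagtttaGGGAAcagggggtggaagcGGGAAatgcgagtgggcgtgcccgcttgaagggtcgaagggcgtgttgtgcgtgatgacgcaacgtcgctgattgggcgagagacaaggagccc

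Rag1, Rag2 and Dntt each held 1 GGGAA, at 51 bases before the start in Rag1, 41 in Rag2 and 246 in Dntt. Xrcc6 held 2, at 63 and 44 bases before the start that the promoter table gives. That start lies inside the longer Xrcc6 span of the RefSeq gene table, not at its first base. In all, 8 of the 10 member promoters held at least 1 match, against 62.7% of 32851 mouse promoters of the same length, so a match was common in both classes. Among 10117 promoters of genes that reached 5 CPM in either library, the share was 64.5%. The exceptions were the Nhej1 promoter and the first of the 2 Lig4 promoters. GGGAG, a related core searched on both strands after the data had been seen, was found in 8 of 10 member promoters. It was found in 71.0% of all promoters and in 79.0% of those of genes that reached 5 CPM, which is close to the share of the members. In Dntt its only match began 15 bases into the transcript. The G and C content of the window was 43.0% in Rag2 and 42.3% in Dntt and higher in Rag1, while the ubiquitous members ranged from 48.0% in Xrcc5 to 67.3% in the other Lig4 promoter. These are descriptions of letters and not of binding.

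Rag1 (Entrez Gene 19373, chromosome 2 from 101638252 to 101649532 in GRCm38.p6) encodes the catalytic subunit of the recombinase. It had 442 reads in the Dox library and 688 in the untreated library, or 31.1 and 90.5 CPM. The deeper Dox library thus held fewer Rag1 reads than the untreated library, and the log2 ratio was -1.54 (-1.72 to -1.37), or 2.90-fold lower with Dox. Of genes that reached 5 CPM in either library, 1.11% had a lower ratio than Rag1. Rag1 also stood at a different place among all genes, since 14.3% of these genes had a lower level per length in the Dox library and 41.8% did so in the untreated library.

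Rag2 (Entrez Gene 19374, chromosome 2 from 101624712 to 101632528) encodes the partner subunit, without which RAG1 does not cut DNA. It was close to the detection limit, with 10 reads in the Dox library and 19 in the untreated library, or 0.703 and 2.50 CPM. Its log2 ratio was -1.60, with a wide interval from -3.10 to -0.65. Without the prior count the Rag2 log2 ratio was -1.83, and neither the interval nor the read ratios that follow include that count. The ratio of Rag1 to Rag2 reads was 44.2 with Dox and 36.2 untreated, and the log2 difference between those ratios was 0.29 (-0.90 to 1.57), so a difference between the Rag1 and Rag2 ratios was not detectable at this depth. Per kilobase of gene length, the Rag1 level was 22.5 times that of Rag2 with Dox and 18.4 times untreated.

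Dntt (Entrez Gene 21673, chromosome 19 from 41029275 to 41059525) was the most abundant member in both libraries. It had 5999 reads with Dox and 6976 untreated, or 422 and 918 CPM. The log2 ratio was -1.12 (-1.17 to -1.07), or 2.18-fold lower with Dox, and 1.94% of genes past 5 CPM had a lower ratio. The Dntt difference was smaller than that of Rag1, since the ratio of Rag1 to Dntt reads was 0.0737 with Dox and 0.0986 untreated, a log2 difference of -0.42 (-0.60 to -0.24). Dntt was far above most genes in both libraries, with a level per length above that of 97.0% of genes past 5 CPM in the Dox library and of 99.1% in the untreated library.

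**Figure D1:**
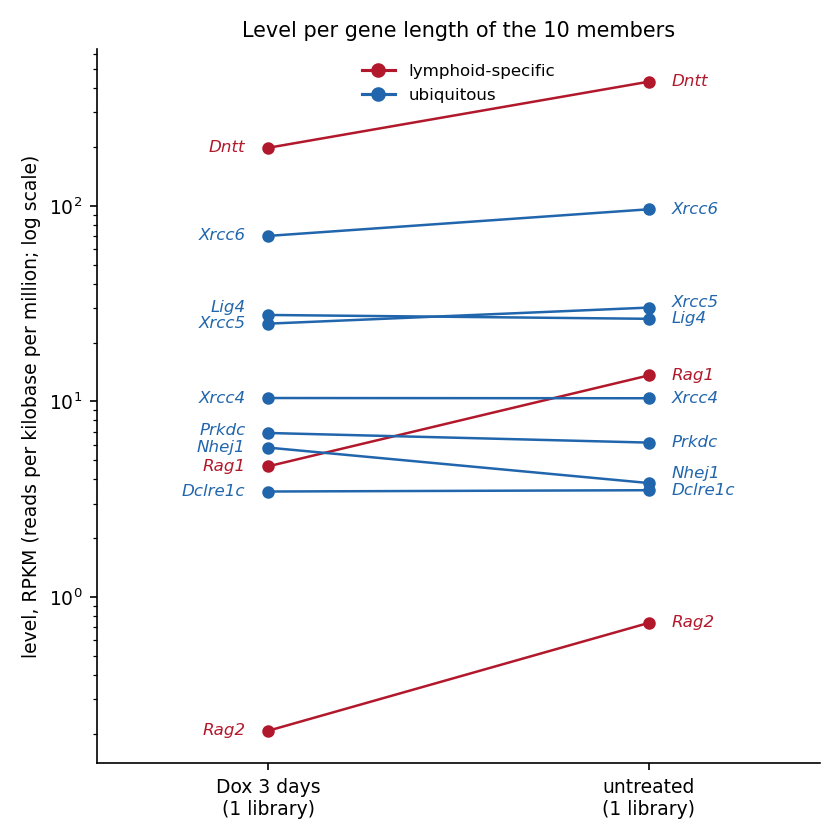
Level of the 10 members in RPKM (log scale), in the Dox library (left) and the untreated library (right), 1 point per library and no error across mice. Rag1 (4.66 against 13.6), Rag2 (0.207 against 0.737) and Dntt (198 against 431) slope the same way, while the lines of most ubiquitous members are nearly level.

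The locus that holds Rag1 and Rag2 also contains Iftap, a gene annotated as B230118H07Rik in GENCODE. Iftap shares 80 exon bases with Rag1 on the same strand and 208 with Rag2 on the opposite strand. It had 90 reads with Dox and 108 untreated, or 6.33 and 14.2 CPM, with the log2 ratio at -1.14 (-1.59 to -0.75), the same direction as both Rag genes. No source used here states the strand setting of the counting, so reads from the shared bases, 1.21% of Rag1 exon bases and 6.07% of those of Rag2, cannot be assigned to either gene with certainty. Other neighbours did not share this size of difference. Traf6, a signalling adaptor gene 28.9 kb away, stood at 123 CPM with Dox and 122 CPM untreated (log2 ratio 0.02, -0.10 to 0.14), and Commd9, 237 kb away, stood at 15.4 and 15.3 CPM (0.01, -0.32 to 0.35). The neighbours of Dntt were either silent or similar in both libraries. Opalin, 2.43 kb away, had no reads, Blnk, an adaptor gene of B cells 35.1 kb away, had 5 reads with Dox and 4 untreated, and Tm9sf3, 151 kb away, had a log2 ratio of 0.09 (0.02 to 0.17). Iftap and these neighbours were looked up after the values of the members had been seen.

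By the size rule, a ratio of 2-fold or more in a gene that reached 5 CPM in either library, 2 of the 10 members (Rag1 and Dntt) were lower with Dox and 0 were higher. With the ubiquitous members set equal between the libraries, Dntt had a log2 ratio of -0.97 and 1 member was lower, and with no CPM minimum Rag2 was added and 3 were lower. Over all 10113 genes past the minimum, 2.24% were lower and 2.21% higher by that rule. At 1.5-fold the members' counts were the same, 2 lower and 0 higher, against 6.18% and 6.28% of all genes. The minimum was passed by 8 members, and Rag2 and Nhej1 did not pass it. The 3 lymphoid-specific members had ratios from -1.60 to -1.12 with a median of -1.54, and the 7 ubiquitous members had ratios from -0.45 to 0.58 with a median of 0.00396, while the median over all genes past the minimum was 0.01. As point values the ranges of the classes did not overlap, with Dntt at -1.12 and Xrcc6 at -0.45 nearest each other. Of all genes past the minimum, 1.94% had a ratio below that of Dntt and 9.23% one below that of Xrcc6. The ends at -1.60 and 0.58 were those of Rag2 and Nhej1, both under the minimum. The 3 lymphoid-specific members were the 3 members with fewer raw reads in the deeper Dox library, which restates their ratios and is no separate result. Of genes past the minimum, which Rag2 did not pass, 2.76% had fewer raw reads in the Dox library.

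**Figure D2:**
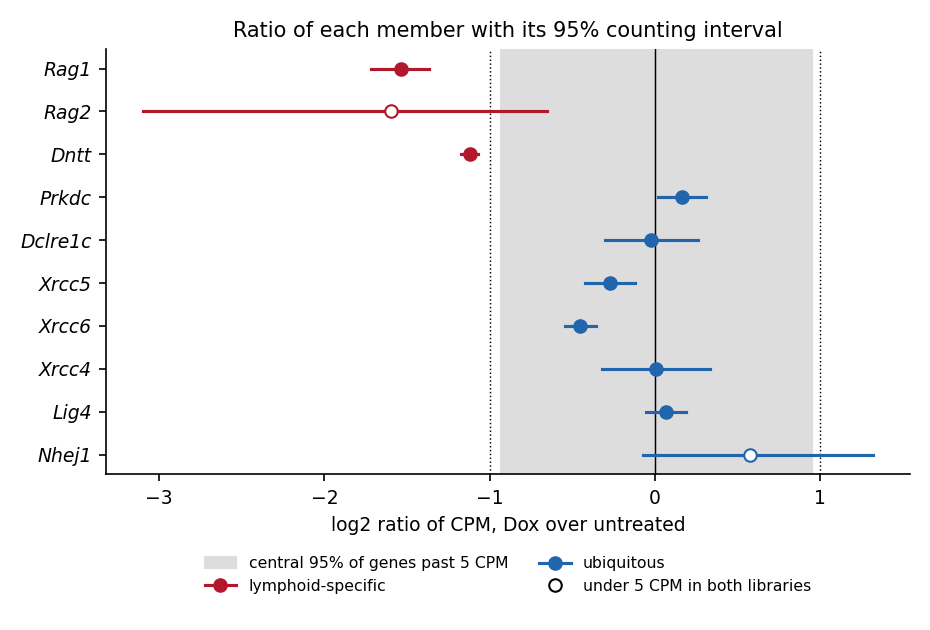
Log2 ratio of CPM, Dox over untreated, for each member with its exact 95% counting interval (red, lymphoid-specific; blue, ubiquitous; open, under 5 CPM in both libraries). The grey band holds the central 95% of genes past 5 CPM, from -0.93 to 0.95, the dotted lines mark 2-fold, and Rag1, Rag2 and Dntt lie left of the band while the ubiquitous members lie inside it.

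The Ku subunits were the ubiquitous members that stood lower with Dox, each by a small amount. Xrcc6 (Ku70, Entrez Gene 14375, chromosome 15 from 81987833 to 82040085) had 2109 reads with Dox and 1541 untreated, or 148 and 203 CPM, with the log2 ratio at -0.45 (-0.55 to -0.36). Xrcc5 (Ku80, Entrez Gene 22596, chromosome 1 from 72307417 to 72394953) had 908 and 586 reads, or 63.8 CPM with Dox and 77.1 CPM untreated, with the log2 ratio at -0.27 (-0.42 to -0.12). Both intervals lay below 0, which was so for 23.8% of all genes past the minimum, and both ratios were smaller than 1.5-fold. The Xrcc6 to Xrcc5 read ratio was 2.32 with Dox and 2.63 untreated, with a log2 difference of -0.18 (-0.36 to 0.001). Against the summed reads of the other 5 ubiquitous members, the Ku reads made a ratio of 0.873 with Dox and 1.23 untreated. The log2 difference was -0.50 (-0.61 to -0.38). This contrast was not among those planned and restates the member ratios, with 2109 of the 3017 Ku reads in the Dox library from Xrcc6. Xrcc6 shares 344 exon bases on the opposite strand with Desi1, which had a log2 ratio of -0.27 (-0.37 to -0.17), so reads of that stretch, 7.69% of Xrcc6 exon bases, cannot be separated.

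The genes that process the ends were close to level. Prkdc (Entrez Gene 19090, chromosome 16 from 15637444 to 15842239) had 1243 reads with Dox and 593 untreated, or 87.4 and 78.0 CPM. Its log2 ratio of 0.16 (0.02 to 0.31) was the only one among the members whose interval lay above 0, as it did for 26.9% of genes past the minimum. Dclre1c (Entrez Gene 227525, chromosome 2 from 3424061 to 3474211) had 306 and 166 reads, or 21.5 CPM with Dox and 21.8 CPM untreated, with the log2 ratio at -0.02 (-0.30 to 0.26). Artemis is activated by DNA-PKcs, and the Prkdc to Dclre1c read ratio was 4.06 with Dox and 3.57 untreated, with an interval of the log2 difference from -0.13 to 0.50.

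The ligase complex was likewise close to level. Lig4 (Entrez Gene 319583, chromosome 8 from 9970020 to 9977680) had 1606 reads with Dox and 820 untreated, or 113 and 108 CPM, with the log2 ratio at 0.07 (-0.06 to 0.19). Xrcc4 (Entrez Gene 108138, chromosome 13 from 89848914 to 90089608), whose protein stabilises the ligase, had 229 and 122 reads, or 16.1 CPM in each library, with the log2 ratio at 0.00396 (-0.32 to 0.33). The Lig4 to Xrcc4 read ratio was 7.01 with Dox and 6.72 untreated. Nhej1 (Entrez Gene 75570, chromosome 1 from 74967346 to 75125226), a scaffold that bridges the ends, had 71 and 25 reads, or 4.99 CPM with Dox and 3.29 CPM untreated. Its log2 ratio of 0.58 (-0.07 to 1.32) was the highest among the members, but the interval reached below 0.

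Per gene length, Dntt headed the members in both libraries and Rag2 was last. With Dox, the order after Dntt was Xrcc6 (70.2 RPKM), Lig4 (27.7), Xrcc5 (24.97), Xrcc4 (10.4), Prkdc (6.89), Nhej1 (5.80), Rag1 (4.66) and Dclre1c (3.46). In the untreated library it was Xrcc6 (96.0 RPKM), Xrcc5 (30.2), Lig4 (26.4), Rag1 (13.6), Xrcc4 (10.4), Prkdc (6.16), Nhej1 (3.83) and Dclre1c (3.52). The place of Rag1 thus differed most, above Xrcc4, Prkdc and Nhej1 without Dox and below them with Dox. By exact Poisson counting intervals, these neighbours in the order overlapped: Lig4 with Xrcc5, Prkdc with Nhej1 and Nhej1 with Rag1 in the Dox library, and Xrcc5 with Lig4 and Nhej1 with Dclre1c in the untreated library.

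The contrast between the classes was also taken within each library, where it needs no scaling. The lymphoid-specific members had 6451 reads and the ubiquitous members 6472 with Dox, against 7683 and 3853 reads in the untreated library. The lymphoid-specific share of all member reads was therefore 49.9% (exact binomial interval 49.1 to 50.8%) with Dox and 66.6% (65.7 to 67.5%) untreated. The ratio of lymphoid-specific to ubiquitous reads was 0.997 with Dox and 1.99 untreated, a log2 difference of -1.0004 (-1.08 to -0.925). Dntt alone made up 46.4% of all member reads with Dox and 60.5% untreated. Without Dntt, the difference between the classes was -1.39 (-1.58 to -1.21).

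Each lymphoid-specific member was set against each ubiquitous member, in 21 pairs that share members and reads. A pair restates the ratios of its members without the prior count. Since the ranges of the classes did not overlap, the direction of all 21 pairs was already given and is no separate result. Every pair had a log2 difference below 0 with an interval that excluded 0. The differences ran from -2.14 to -1.09 for Rag1, from -2.43 to -1.38 for Rag2 and from -1.72 to -0.67 for Dntt. In each case the smallest difference was against Xrcc6 and the largest against Nhej1, which are the ubiquitous members with the lowest and the highest ratio.

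**Figure D3:**
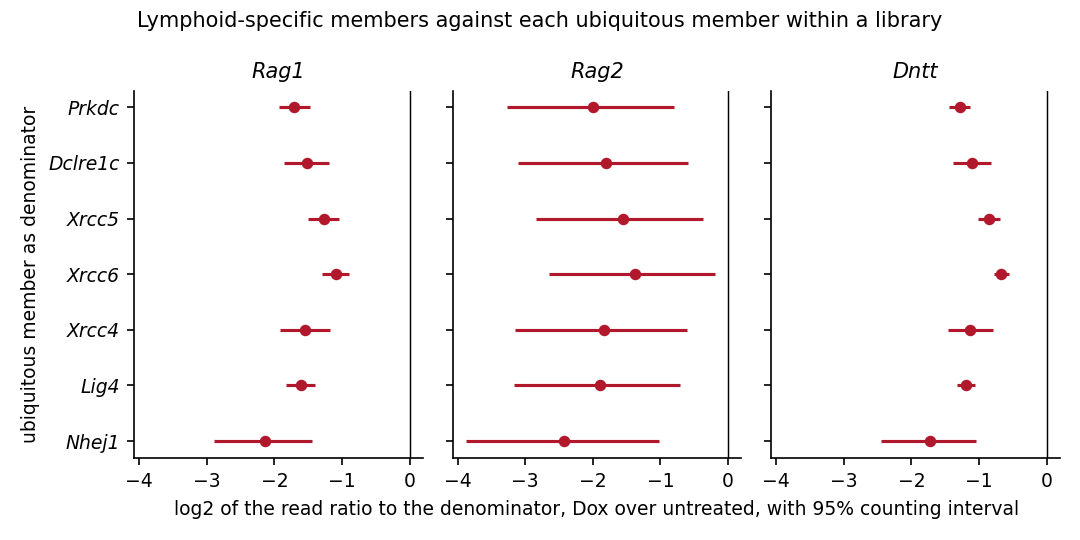
Log2 of the read ratio of Rag1, Rag2 and Dntt to each ubiquitous member, Dox over untreated, with exact 95% counting intervals. All 21 points lie left of 0, between -2.43 and -0.67, and the intervals of Rag2 are the widest. The direction of the points follows from the member ratios.

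Other genes of end joining and DNA repair were described from lists. Of 12 accessory factors of end joining, 11 passed 5 CPM and 0 of these were 2-fold or 1.5-fold apart in either direction, with a median of 0.08 over all 12. Over all genes past 5 CPM, 2.24% were at least 2-fold lower and 2.21% higher, and at 1.5-fold these shares were 6.18% and 6.28%. Lists this short would hold few or no such genes at those shares, so the counts of 0 say little about the lists. Polm and Poll, which encode template-dependent relatives of terminal transferase that fill gaps at the ends, had ratios of 0.28 (-0.02 to 0.60) and 0.28 (-0.04 to 0.62). Neither stood lower with Dox. The list of terminal transferase partners and related polymerases had 0 of 6 genes 2-fold or 1.5-fold apart and a median of 0.08. Dnttip2, a partner of terminal transferase, stood at -0.14 (-0.26 to -0.02) and Polb, a repair polymerase, at 0.14 (-0.07 to 0.36).

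Genes that signal DNA breaks had 15 of 16 listed genes in the table, 14 of them past 5 CPM, with a median of -0.08. Of these 14, 0 were at least 2-fold apart and 1 was at least 1.5-fold lower. Over all genes past 5 CPM, 6.18% were at least 1.5-fold lower and 6.28% higher. Nbn, a subunit of the MRN break sensor, stood lowest at 46.4 CPM with Dox and 70.4 CPM untreated (-0.60, -0.77 to -0.43). Rif1 and Shld2, which protect ends from resection, had ratios of -0.33 (-0.41 to -0.24) and -0.27 (-0.51 to -0.03), and Ube2n, a ubiquitin-conjugating enzyme, one of 0.29 (0.10 to 0.48). Alternative end joining, a back-up route, had 0 of 8 genes 2-fold or 1.5-fold apart and a median of -0.06. Its largest ratio was that of Parp1, a sensor of DNA breaks, at 497 CPM with Dox and 620 CPM untreated (-0.32, -0.37 to -0.27), followed by Lig3, a ligase gene, at -0.19 (-0.29 to -0.08), Polq, a polymerase gene, at 0.11 (-0.05 to 0.28) and Rbbp8, an end-resection gene, at -0.09 (-0.22 to 0.05). Homologous recombination had 0 of 17 genes 2-fold apart and a median of -0.09. Its members furthest from 0 were Rad51b at -0.78 (-1.30 to -0.30), Rad51c at 0.64 (0.32 to 0.97), Palb2 at -0.53 (-0.79 to -0.27) and Brca2 at -0.52 (-0.65 to -0.40), and Palb2 and Brca2 encode partner proteins of this repair route.

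**Figure D4:**
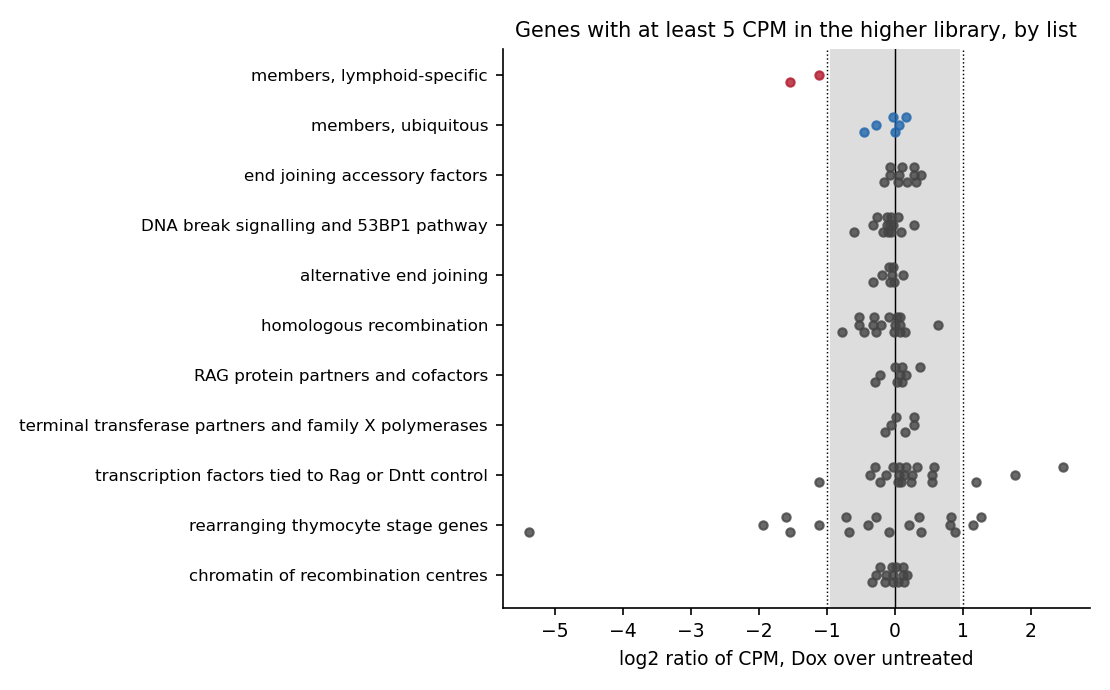
Log2 ratios of CPM, Dox over untreated, for list genes that reached 5 CPM in either library, 1 point per gene, with the grey band and dotted lines as in the plot of member ratios. Repair lists stay within 2-fold, while Rag1 and Dntt and some transcription factors and thymocyte stage genes lie outside.

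Of 9 genes for partners of the RAG proteins, 0 were 1.5-fold apart, and the median was 0.07. Over all genes past 5 CPM, 6.18% were at least 1.5-fold lower and 6.28% higher. A count of 0 among these 9 genes, or among the 14 chromatin genes below, is therefore near the share of all genes. Skp2, part of the ubiquitin ligase that removes RAG2 when cells enter S phase, stood at 76.3 CPM with Dox and 93.3 CPM untreated (-0.29, -0.43 to -0.15). Ccna2, an S phase cyclin gene, had a ratio of 0.16 (0.08 to 0.24), Kpna2, which encodes an importin that binds RAG1, one of 0.37 (0.12 to 0.64), and Uhrf1, a chromatin factor of replicating cells, one of -0.22 (-0.28 to -0.17). The DNA-bending cofactor genes Hmgb1 and Hmgb2 had ratios of 0.07 (-0.06 to 0.20) and 0.10 (0.01 to 0.19). Whether reads of related sequences elsewhere in the genome affected their counts was not tested. Chromatin genes of recombination centres had 0 of 14 genes 1.5-fold apart and a median of -0.03, with Ash2l at -0.34 (-0.45 to -0.24), Set at -0.27 (-0.34 to -0.21), Wdr5 at -0.22 (-0.32 to -0.13) and Nipbl at 0.18 (0.11 to 0.26).

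Transcription factors tied to Rag or Dntt control went in both directions. Of 25 listed, 21 passed 5 CPM, 3 were at least 2-fold higher with Dox and 1 was at least 2-fold lower, and the 21 had a median of 0.14. Ikzf1 itself, the gene the hairpin targets, was among the 3. By the same rule, 2.21% of all genes past 5 CPM were higher and 2.24% lower. Foxo1, a factor known to activate Rag1 and Rag2, had 275 CPM with Dox and 120 CPM untreated, a log2 ratio of 1.19 (1.09 to 1.30), opposite in sign to both Rag genes. Klf2, a factor of quiescent and migrating T cells, had 145 and 42.8 CPM (1.76, 1.59 to 1.94). Runx1, a factor of early thymocytes, stood lower at 174 CPM with Dox and 378 CPM untreated (-1.12, -1.20 to -1.04). The E protein genes Tcf3 and Tcf12, which encode activators of Rag transcription, were level at 0.06 (-0.01 to 0.12) and -0.03 (-0.07 to 0.01). Elf1, an Ets family gene, had a ratio of 0.57 (0.50 to 0.64) and Ets1 one of 0.54 (0.51 to 0.57). The B lineage factor genes Ebf1 and Pax5 had no reads.

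Genes of the thymocyte stage at which receptor genes are rearranged did not follow Rag1 and Dntt as a group. Of 20 listed, including the 3 lymphoid-specific members, 18 passed 5 CPM, of which 2 were higher and 5 lower by at least 2-fold. The 5 include Rag1 and Dntt themselves. Of all genes past 5 CPM, 2.21% were higher and 2.24% lower by that rule, so both directions were more frequent in this list. The median was -0.28 over the 19 with a mean of at least 1 CPM. The lower genes beside Rag1 and Dntt were Il2ra at 0.914 CPM with Dox and 45.4 CPM untreated, Notch3 at 32.0 and 123 CPM and Notch1 at 261 and 789 CPM, all known at the stage before the T cell receptor alpha chain is rearranged. The higher genes were the coreceptor gene Cd8b1 at 393 and 163 CPM and the chemokine receptor gene Ccr9 at 580 and 261 CPM in the Dox and untreated libraries. Ptcra, which encodes the pre-T cell receptor alpha chain, had 0 reads with Dox and 3 untreated, at or under the limit that a count of 0 allows. Arpp21, a gene of cortical thymocytes, had a ratio of -0.39 (-0.51 to -0.28) and Themis, a thymocyte selection gene, one of 0.88 (0.79 to 0.96). Which cells carry these transcripts cannot be told from bulk RNA, in which fewer cells of a kind and less RNA per cell look alike.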

How the data were processed

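RNA sequencing counts of 2 libraries, Dox and untreated, were used. The authors' deposited tables hold counts, whole reads per gene, without normalization, and a gene length in bases per gene. CASAVA 1.8.2, featureCounts and build mm10 are named, per the submitters' processing notes. No source used here states the aligner, the annotation or the strand setting. The design text gives 3 mice per group and 2 runs of each RNA, and how these were combined is not given, so no replicate spread exists. The series table and the separate tables of each library differed in 0 values. Symbols came from a RefSeq table of GRCm38.p6, which matched 25275 of 27179 genes.

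Counts were scaled by TMM (edgeR 4.0.16, R 4.3.3), with factors of 0.984 for Dox and 1.02 for untreated. Ratio intervals are Clopper-Pearson intervals on the Dox share of a gene's reads, without the prior count, and read ratios carry exact conditional intervals (scipy 1.17.1). PCR copies are not independent molecules, so all intervals cover counting error only. The functions were tested on simulated data. The named genes were the members, Ikzf1 and up to 4 genes per list with the largest ratio past 5 CPM, and other names were added after their values were seen. A few genes the rule names are not reported here. Members and lists were chosen with earlier results of these data known. Alternatives were DESeq2 1.42.0 size factors, total counts, equal ubiquitous members, other prior counts, minimums and folds, and thinning of the Dox counts. Prkdc was named without a promoter.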

Additional observations from a re-analysis of the deposited data

How the results depend on the processing

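No paired analysis was possible because each group has 1 library, and no replicate could be left out. Most of 105 recomputed values kept within their counting interval, or within 1.5 times a count, and 0 changed direction where the difference was at least 2-fold. With the ubiquitous members set equal, which moves the median of all genes by 0.16 on the log2 scale, 1 member in place of 2 was at least 2-fold lower, since Dntt came to -0.97, and Prkdc, Xrcc5, Xrcc6 and Lig4 came to 0.32, -0.12, -0.30 and 0.22. A prior count of 5 moved the lymphoid-specific median to -1.35, and members past 5 CPM alone gave -1.33. Without a CPM minimum or with one of 1 CPM, 3 members (Rag2 added) were at least 2-fold lower. With the interval bound in place of the ratio, 2 were. No setting run called a member higher, but the 1.5-fold rule was run with the main scaling only. There Nhej1 lay just under both limits, at 4.99 CPM with Dox and 1.49-fold. Its log2 ratio passed 1.5-fold with the ubiquitous members equal (0.72), with thinned Dox counts (0.65) and with a prior count of 0.5 (0.59). The other settings kept it under 1.5-fold. The log2 difference between the classes within a library was -1.39 without Dntt, -1.32 over Prkdc alone, -1.13 over Dclre1c, -0.88 over Xrcc5, -0.70 over Xrcc6, -1.16 over Xrcc4, -1.22 over Lig4 and -1.76 over Nhej1. Depth limits Rag2 and Nhej1 most, and 3 counts, the limit behind a count of 0, equal 0.211 CPM with Dox and 0.395 CPM untreated.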
